A study of Mus musculus with 12 samples.

Results

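Semaphorins, plexins and neuropilins form a family of guidance ligands and their receptors, and 10 of its genes were followed through cultures of mouse bone marrow-derived macrophages. The 10 were chosen by gene symbol as ligands and receptors of communication between bone cells, out of 16570 genes in the deposited table. They are the ligands Sema3a, Sema4a, Sema4b, Sema4d and Sema7a, the plexin receptors Plxna1, Plxnb2 and Plxnc1, and the neuropilin co-receptors Nrp1 and Nrp2. All 10 passed the filter on low counts.

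RNA was sequenced from primary macrophages grown from the marrow of C57BL/6J mice that were 6 to 8 weeks old. All 12 libraries had M-CSF, the macrophage survival factor, at 50 ng/mL, and the 4 groups of 3 libraries differed in what was added for 2 days. The first group had M-CSF alone, the second also had RANKL, the cytokine that drives osteoclast formation, at 100 ng/mL, and the other two had M-CSF, RANKL and 1 µM of an inhibitor. The labelled inhibitors are BMS309403, which blocks the lipid carrier FABP4, and RHC80267, which blocks diacylglycerol lipase. No group had an inhibitor without RANKL, and a vehicle control is not named in the labels. Whether the 3 libraries of a group are separate cultures or animals is not labelled. The p-values therefore reflect only how much these samples differed, and that spread may be technical.

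Semaphorins are secreted or membrane-bound proteins that bind plexins on the same or another cell, and plexins signal through a GTPase-activating domain that acts on small GTPases and the cytoskeleton. Most secreted class 3 semaphorins need a neuropilin to hold the ligand to a class A plexin, whereas membrane semaphorins of other classes bind their plexins directly. In bone, Sema3A is known as a factor of the osteoblast lineage that restrains osteoclast formation through Nrp1, Sema4D as an osteoclast product that restrains osteoblasts through plexin-B1, and plexin-A1 as a partner of the TREM2 and DAP12 receptor complex in osteoclast precursors.

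Promoter sequences are shown for Sema3a and Sema7a, because these genes had the widest range of levels between the groups. Each is the 250 bases before the start that RefSeq's promoter set gives on GRCm38.p6, read 5′ to 3′ on the plus strand, at chr5:13396534-13396783 for Sema3a and chr9:57939862-57940111 for Sema7a. These are inner starts, 271962 bases downstream of the outermost RefSeq start of Sema3a and 516 bases downstream of that of Sema7a. Both windows therefore lie inside the deposited span of their gene, and they overlap no GENCODE vM21 exon. Capitals mark the letters GGAAA, or TTTCC for the same letters on the other strand, which are the core of NFAT sites.
Sema3a: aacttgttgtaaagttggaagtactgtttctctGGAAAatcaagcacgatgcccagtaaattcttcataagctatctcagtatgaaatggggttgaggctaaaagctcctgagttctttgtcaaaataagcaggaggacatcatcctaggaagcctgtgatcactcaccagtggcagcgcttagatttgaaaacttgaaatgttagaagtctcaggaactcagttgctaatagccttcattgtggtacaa
Sema7a: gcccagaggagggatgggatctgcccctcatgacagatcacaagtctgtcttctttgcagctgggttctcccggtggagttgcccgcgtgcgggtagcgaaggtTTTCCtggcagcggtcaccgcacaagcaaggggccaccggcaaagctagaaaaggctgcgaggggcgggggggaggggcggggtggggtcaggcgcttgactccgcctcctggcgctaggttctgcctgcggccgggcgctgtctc
The Sema3a match lies 217 to 213 bases before this inner start and the Sema7a match 146 to 142 bases before it. GGAAA on either strand occurs in 55.6% of 32851 RefSeq windows of the same length, so a match says little about any gene. Sema3a's window had a GC content of 40.8% and Sema7a's one of 66.4%.

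A further stretch is shown for Plxnc1, the receptor of Sema7A, because it holds the one longer motif match among the receptors. It is on the minus strand at chr10:94944944-94944973, and capitals mark the letters GAAA, any 2 bases and GAAA again, which is the pattern of an interferon-stimulated response element (ISRE).
Plxnc1: ttcacaatggGAAAGTGAAAcgcacaagcg
The match lies 118 to 109 bases before the start in RefSeq's promoter set, which is 170 bases downstream of the outermost RefSeq start of Plxnc1, and overlaps a GGAAA match at 119 to 115 bases before it. The ISRE pattern on either strand occurs in 2.98% of the windows. RefSeq windows were at hand for 9 of the 10 genes, with 16 start sites in all, and no other of the 16 held the ISRE pattern. TGANTCA, an AP-1 site present in 6.75% of all windows, was found at 1 of the 3 Sema4d starts. TCACATG, an E-box of MITF and TFE factors, and GNACA, any 3 bases and TGTNC, a glucocorticoid receptor element, were in none of the 16 windows, against 3.50% and 0.387% of all windows, again on both strands. These are matches of letters in a window, not measured binding.

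Total expected counts were 17760844 to 18344989 per library, so depth was nearly even. The cell labels were compared with marker genes. All 8 macrophage markers were above 1 CPM in every group, with summed levels of 31142 to 31597 CPM per library under M-CSF and 19868 to 28941 CPM in the groups with RANKL. The 8 osteoclast markers summed to 93.4 to 111 CPM under M-CSF, 8109 to 10062 CPM under RANKL alone, 6620 to 7463 CPM where BMS309403 was added and 15855 to 17928 CPM where RHC80267 was added. The RANKL libraries are labelled osteoclast by source and macrophage by cell type, and both marker lists were detected in them. In such bulk cultures, fewer cells of a type and less RNA per cell cannot be told apart. CPM is the count scaled to a library's TMM-adjusted total, and FPKM, the authors' own value, is also divided by transcript length.

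RANKL against M-CSF asked how the family changes when macrophages enter osteoclast formation. All 10 genes were called, 6 higher and 4 lower, where 61.2% of the 12168 genes tested were called, 31.4% higher and 29.8% lower. The 10 genes were chosen with earlier results of these data known. Their share called, here and below, is therefore not a result about the family. Sema7a and Sema3a rose from close to nothing, Nrp2 and Sema4d rose about as far as Nrp1 fell, and the smallest changes were those of Plxnb2 and Plxnc1. The median log2 fold change was 0.40 over the 10 genes and 0.0028 over all genes tested. A call means a Benjamini-Hochberg adjusted p under 0.05 over all genes tested, from edgeR's quasi-likelihood test.

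Sema3a, the secreted class 3 ligand, had 0, 0 and 0.0562 CPM in the 3 M-CSF libraries and 2.57, 2.21 and 1.12 CPM in the RANKL libraries. The M-CSF group held 1 read of Sema3a in all, in replicate 3, against 107 under RANKL. The ratio after scaling was 106 with an exact 95% interval of 18.5 to 4207, which covers counting error only. Without M-CSF replicate 3 that group was at 0, and the lower end of the exact 95% interval was 18.8. With 3 counts over the M-CSF libraries left taken as a floor, the ratio was 23.5. With 3 counts over the whole M-CSF group it was 35.2. Sema3a rose (adjusted p = 1.46e-08), yet at 0.367 ± 0.131 FPKM under RANKL (SD, n = 3) it stayed the lowest of the 10 genes per length.

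**Figure D1:**
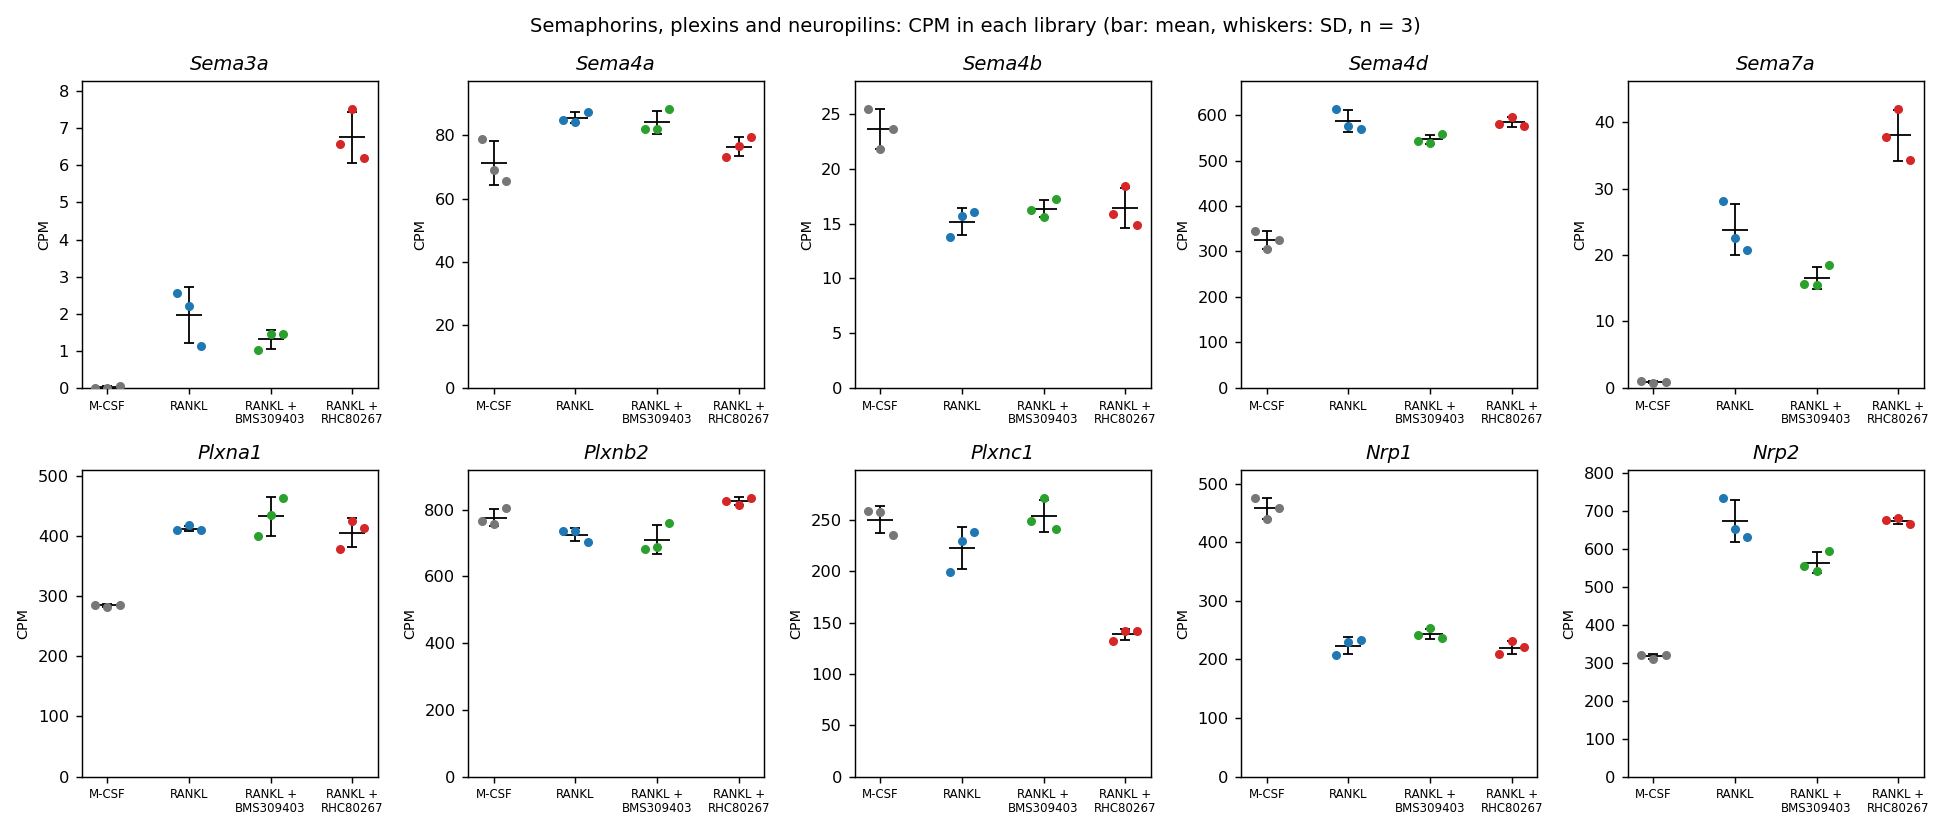
Level of each of the 10 genes in each of the 12 libraries, in CPM on the y axis of each panel, by group on the x axis, with a bar for the mean and whiskers for the SD (n = 3). Sema7a and Sema3a are near 0 under M-CSF and highest with RHC80267, Nrp1 drops in all 3 groups with RANKL, and Plxnc1 is lowest with RHC80267.

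Sema7a, a membrane semaphorin held by a lipid anchor that binds plexin-C1 and beta1 integrins, had 1.06, 0.727 and 0.899 CPM under M-CSF. Under RANKL it had 28.1, 22.6 and 20.8 CPM. All RANKL libraries were far above all M-CSF libraries. Sema7a rose 26.4-fold, a log2 fold change of 4.72 ± 0.18 (SE, adjusted p = 1.69e-15).

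Sema4d, the osteoclast-derived ligand of plexin-B1, was already abundant at 344, 306 and 324 CPM under M-CSF. It reached 613, 576 and 569 CPM under RANKL. The groups did not overlap, and Sema4d rose by 0.85 ± 0.042 on the log2 scale, or 1.80-fold (adjusted p = 9.93e-14). Plxnb1, the gene of that plexin, was all but absent from these cells and did not pass the filter on low counts. It had 3 reads over the M-CSF group, 3 over the RANKL group, 2 with BMS309403 and 12 with RHC80267. Plexin-B1 is not the only receptor of Sema4D. Cd72, from the list of alternative receptors read further below, had mean levels of 44.2, 46.0, 42.4 and 52.0 CPM in the same order of groups.

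Sema4a, a membrane ligand also known from dendritic cells and T cell priming, moved little, from 79.0, 69.1 and 65.6 CPM to 85.0, 84.3 and 87.6 CPM. Its libraries did not overlap between the groups, and it rose by 0.27 ± 0.055 on the log2 scale (adjusted p = 0.000264). Sema4b, another class 4 membrane ligand, went the other way, from 25.5, 21.9 and 23.7 CPM to 13.8, 15.7 and 16.1 CPM. Every RANKL library was below every M-CSF library, and Sema4b fell by 0.64 ± 0.083 on the log2 scale (adjusted p = 7.07e-07). The 5 semaphorins summed to 108 ± 7.30 FPKM under M-CSF and 183 ± 7.80 FPKM under RANKL, and Sema4d made up 70.7% and 76.5% of these sums.

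Plxna1, the class A plexin tied to TREM2 in osteoclast precursors, had 285, 282 and 286 CPM under M-CSF and 409, 418 and 409.8 CPM under RANKL. The 3 values within each group were close together, and Plxna1 rose by 0.53 ± 0.048 on the log2 scale (adjusted p = 2.21e-09). In GENCODE, 970 of the 9054 exonic bases of Plxna1 are shared with the antisense gene Gm26811. Whether the counts use strand is not given in the sources used here, so reads from the pair cannot be told apart.

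Plxnb2, a class B plexin of many cell types, had 766, 756 and 805 CPM under M-CSF and 737, 735 and 702 CPM under RANKL. The groups were close without overlapping, and Plxnb2 fell by 0.098 ± 0.041 on the log2 scale (adjusted p = 0.0432). Without M-CSF replicate 3 the change was −0.071 (adjusted p = 0.178), without RANKL replicate 2 it was −0.11 (adjusted p = 0.0527) and without RANKL replicate 3 it was −0.075 (adjusted p = 0.162), none of them called. Plxnc1, the receptor of Sema7A, overlapped between the groups, with 259, 258 and 235 CPM under M-CSF and 199.9, 230.1 and 238 CPM under RANKL. It fell by 0.17 ± 0.056 on the log2 scale (adjusted p = 0.0130), but by 0.097 and without a call when RANKL replicate 1 was left out (adjusted p = 0.119).

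The neuropilins moved in opposite directions. Nrp1, through which Sema3A acts on osteoclast precursors, had 476, 439.6 and 458 CPM under M-CSF and 208, 231 and 233 CPM under RANKL. The groups were far apart, and Nrp1 fell by 1.03 ± 0.047 on the log2 scale, to 0.488 of its M-CSF level (adjusted p = 2.66e-14). Nrp2, which binds other class 3 semaphorins and VEGF-C, had 322, 309 and 321 CPM under M-CSF and 735, 651 and 632 CPM under RANKL. It rose by 1.08 ± 0.048 on the log2 scale, or 2.12-fold (adjusted p = 1.52e-14), again without overlap.

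Per length, the order of the neuropilins turned over. Under M-CSF the ratio of Nrp2 to Nrp1 FPKM within a library was 0.659 ± 0.0131 (SD, n = 3), and under RANKL it was 2.97 ± 0.459. Summed, the neuropilins came to 133 ± 4.66 FPKM under M-CSF and 159 ± 8.95 FPKM under RANKL.

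**Figure D2:**
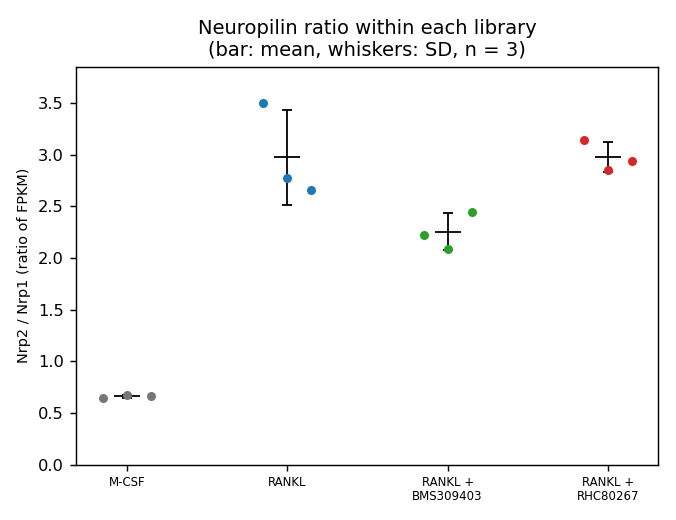
Ratio of Nrp2 to Nrp1 FPKM on the y axis in each library, by group on the x axis, with a bar for the mean and whiskers for the SD (n = 3). The M-CSF libraries lie below 1 with a mean of 0.659, and all libraries with RANKL lie above 2, with a mean of 2.97 under RANKL alone.

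Marker sums of other cells also differed between RANKL and M-CSF. The 6 erythroid and megakaryocyte markers, mostly Pf4, summed to 293 to 307 CPM under M-CSF and 90.8 to 94.3 CPM under RANKL. The 8 endothelial markers, led by Vwf, summed to 39.5 to 42.0 CPM under M-CSF and 65.0 to 72.5 CPM under RANKL. The 5 T cell markers, nearly all Cd4, summed to 39.3 to 40.9 CPM and 76.95 to 97.2 CPM, and the 5 B cell markers to 14.2 to 15.1 CPM and 10.7 to 11.3 CPM. The part of these shifts in the changes of the 10 genes was not tested.

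The first RANKL library stood to one side of the other two in several of these genes. It had the highest Sema3a, Sema4d, Sema7a and Nrp2 of its group and the lowest Sema4b, Plxnc1 and Nrp1, and its osteoclast markers summed to 10062 CPM, the top of the group's range. Because the same 3 RANKL libraries serve as controls for both inhibitors, each comparison below is given on its own.

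BMS309403 against RANKL asked what the FABP4 inhibitor changes under RANKL. Of the 10 genes, 1 was higher and 2 were lower, where 7.23% of all genes tested were called, 3.49% higher and 3.74% lower. Sema7a and Nrp2, which had risen under RANKL, were lower with BMS309403, and Plxnc1, which had fallen, was slightly higher. This comparison and that of RANKL against M-CSF use the same RANKL libraries, so opposite signs in them are not independent. The median log2 fold change was −0.027 over the 10 genes and −0.0056 over all genes.

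Sema7a had 15.6, 15.6 and 18.5 CPM with BMS309403, each below the lowest RANKL library. It fell by 0.53 ± 0.10 on the log2 scale, to 0.694 of the RANKL level (adjusted p = 0.00292). Without RANKL replicate 1 the change was −0.39 and still called (adjusted p = 0.0314). Nrp2 had 554, 543 and 595 CPM, also below every RANKL library. It fell by 0.26 ± 0.047 (adjusted p = 0.00181), and by 0.19 without RANKL replicate 1 (adjusted p = 0.0260).

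Plxnc1 had 249, 272 and 241 CPM with BMS309403, just above the RANKL libraries. It rose by 0.19 ± 0.056 on the log2 scale (adjusted p = 0.0442). That call rested on single libraries, since it was lost without RANKL replicate 1 (0.12, adjusted p = 0.319), RANKL replicate 2 (0.22, adjusted p = 0.0581), BMS309403 replicate 1 (0.21, adjusted p = 0.0708) or BMS309403 replicate 2 (0.14, adjusted p = 0.249). Calls over all genes also shifted in this comparison, from 425 higher and 455 lower. They went to 152 and 111 without RANKL replicate 1, and to 473 and 538 without RANKL replicate 3.

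The 7 other genes were not called. Sema3a had 1.02, 1.45 and 1.45 CPM, overlapping with RANKL, and a log2 fold change of −0.59 ± 0.27 (adjusted p = 0.230, 95% interval −1.15 to −0.023). Without RANKL replicate 3, the lowest of its group, the change was −0.86 and was called (adjusted p = 0.0283), and without RANKL replicate 1 it was −0.35. Sema4d at 544, 539 and 558 CPM and Nrp1 at 242, 253 and 236 CPM did not overlap with RANKL, with log2 fold changes of −0.10 and 0.12 (adjusted p = 0.167 and 0.136). For Sema4a, Sema4b, Plxna1 and Plxnb2 the estimates were between −0.030 and 0.11, and their 95% intervals lay within −0.14 and 0.29.

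Of the marker sums with BMS309403, the osteoclast list was below every RANKL library. The macrophage list was above every RANKL library, at 27361 to 28941 CPM against 24720 to 26362 CPM. It was mostly Lyz2, at a mean of 21243 CPM against 19090 CPM. Itgam, at 1044 against 1075 CPM, and Cx3cr1, at 50.2 against 51.0 CPM, were slightly lower on average. The T cell list was at 116 to 127 CPM against 76.95 to 97.2 CPM, with Cd4 its one gene above 1 CPM on average. The dendritic cell list was at 27.3 to 29.8 CPM against 31.3 to 33.8 CPM, and the erythroid and megakaryocyte list at 98.3 to 111 CPM against 90.8 to 94.3 CPM. The endothelial list was at 62.1 to 64.7 CPM against 65.0 to 72.5 CPM. Their part in the changes was not tested.

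RHC80267 against RANKL asked what the diacylglycerol lipase inhibitor changes under RANKL. Of the 10 genes, 3 were higher and 2 were lower, where 49.9% of all genes tested were called, 26.9% higher and 23.0% lower. Sema3a and Sema7a rose further, Plxnb2 rose slightly, Plxnc1 fell and Sema4a fell slightly. The median log2 fold change was −0.0015 over the 10 genes and 0.025 over all genes.

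Sema3a had 6.57, 7.52 and 6.19 CPM with RHC80267, each above every RANKL library. It rose by 1.78 ± 0.20 on the log2 scale (adjusted p = 2.92e-07), and the ratio of the summed counts, 374 against 107 reads, was 3.43 with a 95% interval of 2.76 to 4.29. Since Sema3A is known as a product of osteoblast-lineage cells, stromal and osteoblast markers were read beside it. Of 10 such markers in the table, 6 were above 1 CPM on average with RHC80267 and 4 in each other group, and their sum was 17.3 to 28.7 CPM in the other 9 libraries. With RHC80267 the sum was 78.6 CPM in replicate 1 and 26.3 to 28.4 CPM in the other two. The sum includes Runx2, at 9.70 to 11.4 CPM with RHC80267 and up to 14.6 CPM elsewhere. For the collagens Col1a1, Col1a2 and Col3a1, all 3 RHC80267 libraries lay above all 9 others. Col1a1 had 21.1, 6.10 and 4.72 CPM against at most 4.32 CPM elsewhere. Col1a2 had 24.6, 5.34 and 5.21 CPM against at most 4.92 CPM, and Col3a1 6.30, 2.13 and 1.68 CPM against at most 1.31 CPM. The other markers, Sparc, Pdgfra, Pdgfrb, Cxcl12, Runx2, Alpl and Dcn, did not separate in this way. The share of all genes that did was not computed. These collagens were thus highest in replicate 1, and the margins of RHC80267 replicates 2 and 3 were smaller. There Col1a1 had 112 and 87 reads, against 79 in RANKL replicate 1. Col1a2 had 98 and 96 reads against 90, and Col3a1 39 and 31 against 24. Whether these margins exceed counting error was not tested. Without replicate 1 the Sema3a change was 1.80 (adjusted p = 9.48e-07), and the part of stromal RNA in it was not tested.

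Sema7a reached 37.8, 42.0 and 34.4 CPM, above every RANKL library. It rose by 0.67 ± 0.09 on the log2 scale, or 1.59-fold (adjusted p = 2.50e-06). Its receptor Plxnc1 moved the other way, with 133, 141 and 142 CPM, well under the lowest RANKL library. Plxnc1 fell by 0.68 ± 0.058, to 0.622 of the RANKL level (adjusted p = 2.93e-09). The other receptor of Sema7A, the beta1 integrin Itgb1, had a log2 fold change of −0.17 ± 0.037 (adjusted p = 0.000495).

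Plxnb2 had 827, 813 and 836 CPM, above every RANKL library, and rose by 0.19 ± 0.041 on the log2 scale (adjusted p = 0.000674). Sema4a had 73.2, 76.7 and 79.4 CPM, below every RANKL library, and fell by 0.16 ± 0.055 (adjusted p = 0.0164). The Sema4a call was lost without RANKL replicate 3 (adjusted p = 0.0560) or RHC80267 replicate 1 (adjusted p = 0.0792).

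Sema4d, Plxna1 and the neuropilins, which RANKL had changed, showed no call with RHC80267. Sema4d had 579.9, 597 and 576 CPM and Plxna1 378, 424 and 413 CPM, with 95% intervals of the log2 fold change of −0.091 to 0.08 and −0.12 to 0.072. Nrp1 had 209, 231 and 221 CPM and Nrp2 676, 680.5 and 665 CPM, with intervals of −0.12 to 0.078 and −0.095 to 0.10. All 4 genes overlapped with the RANKL libraries, and changes beyond these bounds lie outside the intervals. Sema4b at 15.9, 18.5 and 14.9 CPM was not called either (log2 fold change 0.11 ± 0.087, adjusted p = 0.300).

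Marker sums of other cells moved in the same comparison. With RHC80267 the 8 neutrophil markers summed to 672 to 1003 CPM, against 1420 to 1626 CPM under RANKL, and the 8 endothelial markers to 26.9 to 33.0 CPM, against 65.0 to 72.5 CPM. All 8 neutrophil markers were above 1 CPM on average in both groups. Of the endothelial markers, Emcn and Tek had at most 1 read in either group. The 5 T cell markers summed to 43.8 to 50.6 CPM, against 76.95 to 97.2 CPM, nearly all of it Cd4. The 4 dendritic cell markers, each above 1 CPM on average, summed to 18.2 to 22.7 CPM, against 31.3 to 33.8 CPM. The 8 macrophage markers summed to 19868 to 20920 CPM, against 24720 to 26362 CPM. That sum was mostly Lyz2, at a mean of 14338 CPM against 19090 CPM. Cd68, Mertk and Cx3cr1 were instead higher on average, at 1321, 178 and 57.6 CPM against 1280, 116 and 51.0 CPM. The part of these shifts, and of the rise in osteoclast markers, in the changes of the 10 genes was not tested.

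**Figure D3:**
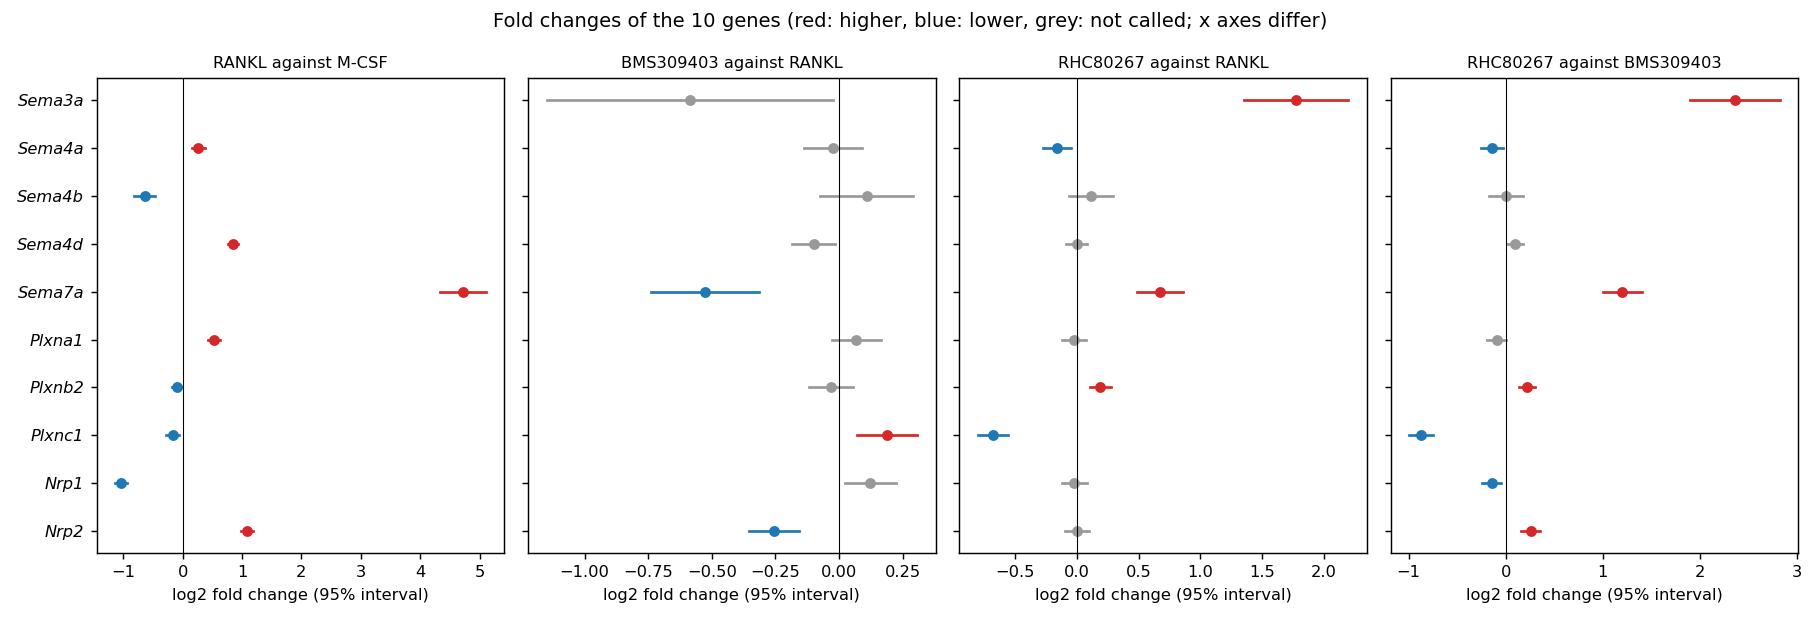
Log2 fold changes of the 10 genes in 4 comparisons, on x axes that differ between panels, with 95% intervals as bars, red for called higher, blue for called lower and grey for not called. Sema3a is not drawn in the first panel because its M-CSF group held 1 read, and Sema7a and Nrp2 are blue with BMS309403 while Sema3a and Sema7a are red with RHC80267.

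RHC80267 against BMS309403 compared the inhibitors directly, each at 1 µM for 2 days with RANKL. Of the 10 genes, 4 were higher and 3 were lower with RHC80267, where 55.5% of all genes were called, 30.1% higher and 25.5% lower. Sema3a, Sema7a, Nrp2 and Plxnb2 were higher with RHC80267, and Plxnc1, Nrp1 and Sema4a were lower. The median log2 fold change was 0.049 over the 10 genes and 0.027 over all genes.

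Sema3a differed by 2.36 ± 0.22 on the log2 scale (adjusted p = 8.72e-09) and Sema7a by 1.20 ± 0.10 (adjusted p = 6.96e-10). Plxnc1 differed by −0.87 ± 0.058 (adjusted p = 3.50e-11), so that its level with RHC80267 was 0.546 of that with BMS309403. For these 3 genes no library of one inhibitor overlapped with the other. Nrp2 was higher with RHC80267 by 0.26 ± 0.047 (adjusted p = 8.00e-05) and Plxnb2 by 0.22 ± 0.041 (adjusted p = 0.000118).

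Nrp1 was lower with RHC80267 by a log2 fold change of −0.14 ± 0.048 (adjusted p = 0.0137), a call lost without RHC80267 replicate 1 (adjusted p = 0.0861). Sema4a was lower by −0.14 ± 0.055 (adjusted p = 0.0352), and its call was lost without BMS309403 replicate 3, RHC80267 replicate 1 or RHC80267 replicate 2 (adjusted p = 0.0860, 0.140 and 0.0673). Plxna1, at −0.094 ± 0.047, was not called (adjusted p = 0.0949) but was called without BMS309403 replicate 1 (−0.17, adjusted p = 0.00325) or RHC80267 replicate 2 (−0.13, adjusted p = 0.0429). Sema4d and Sema4b were not called, with 95% intervals of 0.0093 to 0.18 and −0.18 to 0.18.

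Against M-CSF alone, the cultures with RANKL and an inhibitor mostly kept the direction of RANKL. With BMS309403, 6 of the 10 genes were higher and 3 lower, where 57.0% of all genes were called, 29.7% higher and 27.3% lower. With RHC80267, 5 were higher and 3 lower, where 70.4% were called, 36.0% higher and 34.4% lower. The medians over the 10 genes were 0.42 and 0.31 on the log2 scale, against 0.0026 and 0.0081 over all genes.

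Sema7a stood 18.3-fold above M-CSF with BMS309403 and 42.1-fold with RHC80267 (adjusted p = 7.02e-14 and 1.76e-17). For Sema3a the ratio to the single M-CSF read was 70.1 (95% interval 12.2 to 2809) with BMS309403 and 362 (64.5 to 14327) with RHC80267. Without M-CSF replicate 3, the lower end of the exact 95% interval for Sema3a was 12.4 with BMS309403 and 65.1 with RHC80267. From a floor of 3 counts over the M-CSF libraries left, the ratios were 15.6 and 80.5. Nrp1 stood at 0.532 and 0.481 of its M-CSF level, and Nrp2 at 1.78-fold and 2.12-fold, all 4 called. Sema4b was lower in both comparisons and Sema4d and Plxna1 were higher in both.

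Plxnc1, Sema4a and Plxnb2 were called against M-CSF with one inhibitor and not with the other. With BMS309403 Plxnc1 was not called, at 0.02 ± 0.056 on the log2 scale (adjusted p = 0.784), and with RHC80267 it fell by 0.85 ± 0.058 (adjusted p = 1.30e-11). Sema4a rose with BMS309403 by 0.24 ± 0.055 (adjusted p = 0.000786), and with RHC80267 its value was 0.10 ± 0.056 (adjusted p = 0.108), called without M-CSF replicate 1 (0.17, adjusted p = 0.00682). Plxnb2 fell with BMS309403 by 0.13 ± 0.041 (adjusted p = 0.0106), a call lost without M-CSF replicate 3, BMS309403 replicate 1 or BMS309403 replicate 2 (adjusted p = 0.0585, 0.0681 and 0.0636). With RHC80267 Plxnb2 stood at 0.089 ± 0.041 (adjusted p = 0.0575) and was called without M-CSF replicate 3 (0.12, adjusted p = 0.0254).

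Levels of the 10 genes were ranked per length with the deposited FPKM. Under M-CSF, Plxnb2 led at 122 ± 3.84 FPKM, followed by Nrp1 at 80.3 ± 3.41 and Sema4d at 76.0 ± 4.77 FPKM, which overlapped, and Nrp2 at 52.9 ± 1.28 FPKM. Plxnc1 at 35.2 ± 1.98, Plxna1 at 32.1 ± 0.235, Sema4a at 24.6 ± 2.29 and Sema4b at 6.54 ± 0.536 FPKM came next. Sema7a at 0.340 ± 0.105 FPKM and Sema3a, with 0, 0 and 0.0100 FPKM in its 3 libraries, closed the order.

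Under RANKL, Sema4d moved to the top at 139.9 ± 6.62 FPKM. Nrp2 at 118 ± 11.2 and Plxnb2 at 116 ± 3.73 FPKM followed and did not differ beyond their spread. Plxna1 at 47.5 ± 0.571 and Nrp1 at 40.1 ± 2.26 FPKM were next, then Plxnc1 at 32.0 ± 2.72 and Sema4a at 29.9 ± 0.435 FPKM, which overlapped. Sema7a at 8.39 ± 1.63 FPKM had passed Sema4b at 4.28 ± 0.312 FPKM, with Sema3a last.

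With BMS309403 the order was Sema4d (128 ± 2.68 FPKM), Plxnb2 (111 ± 6.80), Nrp2 (95.8 ± 4.70), Plxna1 (48.7 ± 3.64), Nrp1 (42.6 ± 1.41), Plxnc1 (35.6 ± 2.15), Sema4a (28.8 ± 1.16), Sema7a (5.45 ± 0.575), Sema4b (4.51 ± 0.225) and Sema3a (0.233 ± 0.0462). With RHC80267 the same order held except that Plxnc1, at 20.5 ± 0.718 FPKM, dropped below Sema4a, at 27.6 ± 1.22 FPKM. Sema7a reached 13.2 ± 1.24 FPKM and Sema3a 1.3 ± 0.135 FPKM there. Of the summed FPKM of the 3 plexins, Plxnb2 held 64.3% under M-CSF, 59.3% under RANKL, 56.8% with BMS309403 and 66.5% with RHC80267. The ratio of Nrp2 to Nrp1 was 2.25 ± 0.181 with BMS309403 and 2.98 ± 0.147 with RHC80267.

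**Figure D4:**
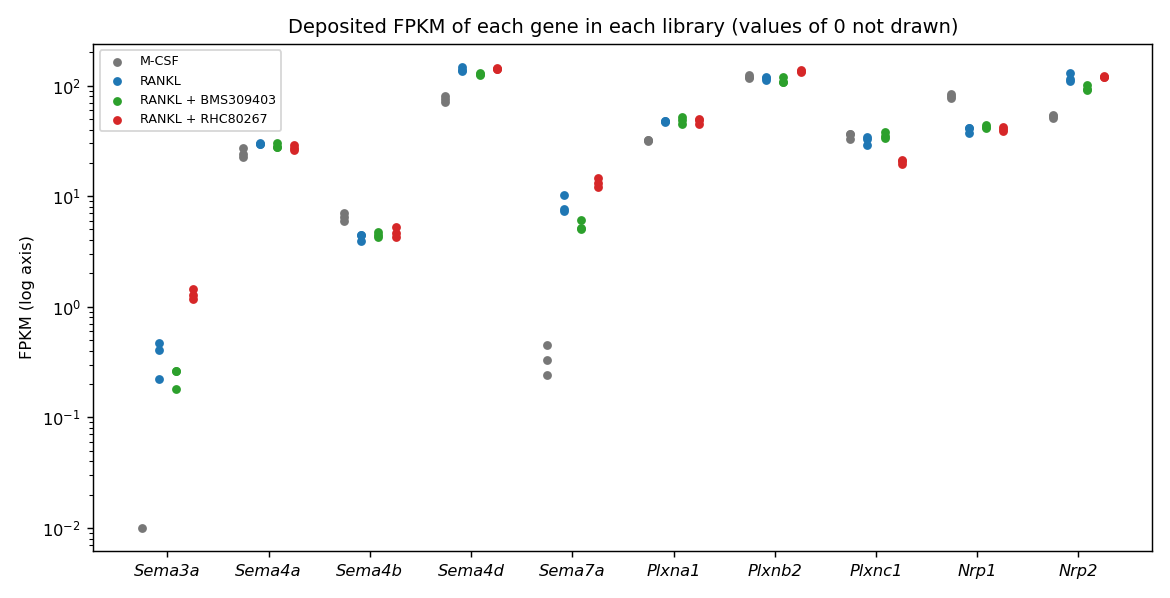
Deposited FPKM of each gene in each library on a log axis, coloured by group, with values of 0 not drawn. Sema4d, Plxnb2 and the neuropilins lie at the top, and Sema3a and Sema7a span the widest range, with Sema3a at or below 0.01 FPKM under M-CSF.

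A list of other genes of the pathway was read beside the 10: other semaphorins and plexins, alternative receptors and ligands, and intracellular effectors. Of 60 such genes in the table, 48 passed the filter on low counts, among them 6 of 13 semaphorins and 5 of 6 plexins. Under RANKL, 19 of the 48 were higher and 12 lower than under M-CSF. With BMS309403, 1 was higher and 4 lower than under RANKL, and with RHC80267 17 were higher and 16 lower. The shares called were 64.6%, 10.4% and 68.8% of the 48, against 61.2%, 7.23% and 49.9% of all genes tested. The medians were 0.057, −0.032 and −0.018 on the log2 scale, against 0.0028, −0.0056 and 0.025 over all genes.

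Among other ligands, Sema3d, a secreted class 3 semaphorin, followed the order of levels seen for Sema3a. It had 0, 0.0559 and 0 CPM under M-CSF, where the group held 1 read, and 3.39, 3.31 and 2.91 CPM under RANKL. With BMS309403 it had 2.33, 2.17 and 2.52 CPM and with RHC80267 7.54, 7.36 and 7.33 CPM. Sema3d rose with RHC80267 over RANKL by 1.21 ± 0.13 (adjusted p = 1.94e-07) and over BMS309403 by 1.66 ± 0.14 (adjusted p = 2.39e-09). Its ratio to M-CSF under RANKL alone was 172 (95% interval 30.4 to 6817). The same ratio was 125 (22.1 to 4986) where BMS309403 was added, and for RHC80267 it was 397 (70.8 to 15703). Without M-CSF replicate 2, which held the read, the lower end of the interval was 30.7 under RANKL and 71.3 with RHC80267. From a floor of 3 counts over the M-CSF libraries left, the ratios were 38.1 and 88.0. Sema6d, known as a ligand of plexin-A1, had 14.6 ± 2.26 CPM under M-CSF and 14.8 ± 0.166 CPM under RANKL and fell with RHC80267 (log2 fold change −0.45 ± 0.10, adjusted p = 0.000684).

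Of the other plexins, Plxna4, a class A receptor that pairs with neuropilins, had 1.29, 1.17 and 1.07 CPM under M-CSF and 32.6, 25.1 and 21.9 CPM under RANKL. It rose by 4.49 ± 0.17 on the log2 scale (adjusted p = 1.43e-15). With BMS309403 it had 18.6, 18.4 and 20.9 CPM, a fall by 0.46 ± 0.10 (adjusted p = 0.00664) that missed the threshold without RANKL replicate 1 (−0.28, adjusted p = 0.0557). With RHC80267 it had 42.4, 43.9 and 41.9 CPM, and the difference from BMS309403 was 1.15 ± 0.093 (adjusted p = 8.91e-10).

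Plxnd1, the plexin that Sema3E binds without a neuropilin, was the most abundant plexin outside the 3 members. It had 50.4 ± 1.03 FPKM under M-CSF and 86.5 ± 2.74 FPKM under RANKL, and rose by 0.75 ± 0.036 (adjusted p = 7.16e-14). It rose again with RHC80267, by 0.35 ± 0.035 over RANKL (adjusted p = 4.79e-08) and 0.49 ± 0.036 over BMS309403 (adjusted p = 1.66e-10). Plxna2, a further class A plexin, rose under RANKL by 1.18 ± 0.068 (adjusted p = 1.73e-12).

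Among partner receptors, Trem2, which signals with plexin-A1, fell under RANKL by 0.81 ± 0.043 on the log2 scale (adjusted p = 3.99e-13) and fell further with RHC80267 by 0.35 ± 0.044 (adjusted p = 9.80e-07). It stood lower with RHC80267 than with BMS309403 (−0.50 ± 0.044, adjusted p = 2.92e-09). The receptor kinases of the Met family, known partners of class B plexins, rose under RANKL. Met went from 7.17 ± 0.869 to 30.9 ± 5.60 CPM (log2 fold change 2.11 ± 0.12, adjusted p = 2.20e-12), and Mst1r from 0.0374 ± 0.0324 to 45.0 ± 5.50 CPM (adjusted p = 5.37e-18). Mst1r rose further with RHC80267, by 1.07 ± 0.075 over RANKL (adjusted p = 1.39e-10) and 1.35 ± 0.077 over BMS309403 (adjusted p = 2.62e-12).

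Kdr, the VEGF receptor that works with neuropilins, had 8.69, 10.2 and 8.11 CPM under RANKL and 1.99, 2.67 and 2.33 CPM with RHC80267. It fell by 1.95 ± 0.14 (adjusted p = 3.01e-10) and differed from BMS309403 by −2.19 ± 0.14 (adjusted p = 1.90e-11). Kdr is itself an endothelial marker, and the sums of that list are given above. Mical1, an oxidoreductase that acts on actin downstream of class A plexins, fell with RHC80267 by 0.69 ± 0.062 (adjusted p = 7.97e-09).

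The 5 calls of this list with BMS309403 depended on single libraries, as did many calls over all genes in this comparison, given above. Beside Plxna4, the 5 were Plxnd1 at −0.14 ± 0.036 (adjusted p = 0.0210), Mical3, a relative of Mical1, at −0.46 ± 0.12 (adjusted p = 0.0236), Trem2 at 0.15 ± 0.043 (adjusted p = 0.0363) and Mst1r at −0.28 ± 0.083 (adjusted p = 0.0394). These 4 calls were each lost without any 1 of RANKL replicate 1, RANKL replicate 2, BMS309403 replicate 1 or BMS309403 replicate 2, with adjusted p of 0.0607 to 0.319.

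Against M-CSF, 18 of the 48 pathway genes were higher and 11 lower with BMS309403, and 22 were higher and 20 lower with RHC80267. That is 60.4% and 87.5% of the 48, against 57.0% and 70.4% of all genes. Plxna4 stood above M-CSF by 4.03 ± 0.18 and 5.17 ± 0.16 on the log2 scale, Plxnd1 by 0.61 ± 0.036 and 1.1 ± 0.036, and Trem2 below it at −0.66 ± 0.043 and −1.16 ± 0.044, in that order of inhibitors and all called. Plxna2 rose with BMS309403 by 1.07 ± 0.069 and Met with RHC80267 by 2.48 ± 0.12. Between the inhibitors, 18 of the 48 genes were higher and 17 lower with RHC80267, or 72.9% against 55.5% of all genes.

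**Figure D5:**
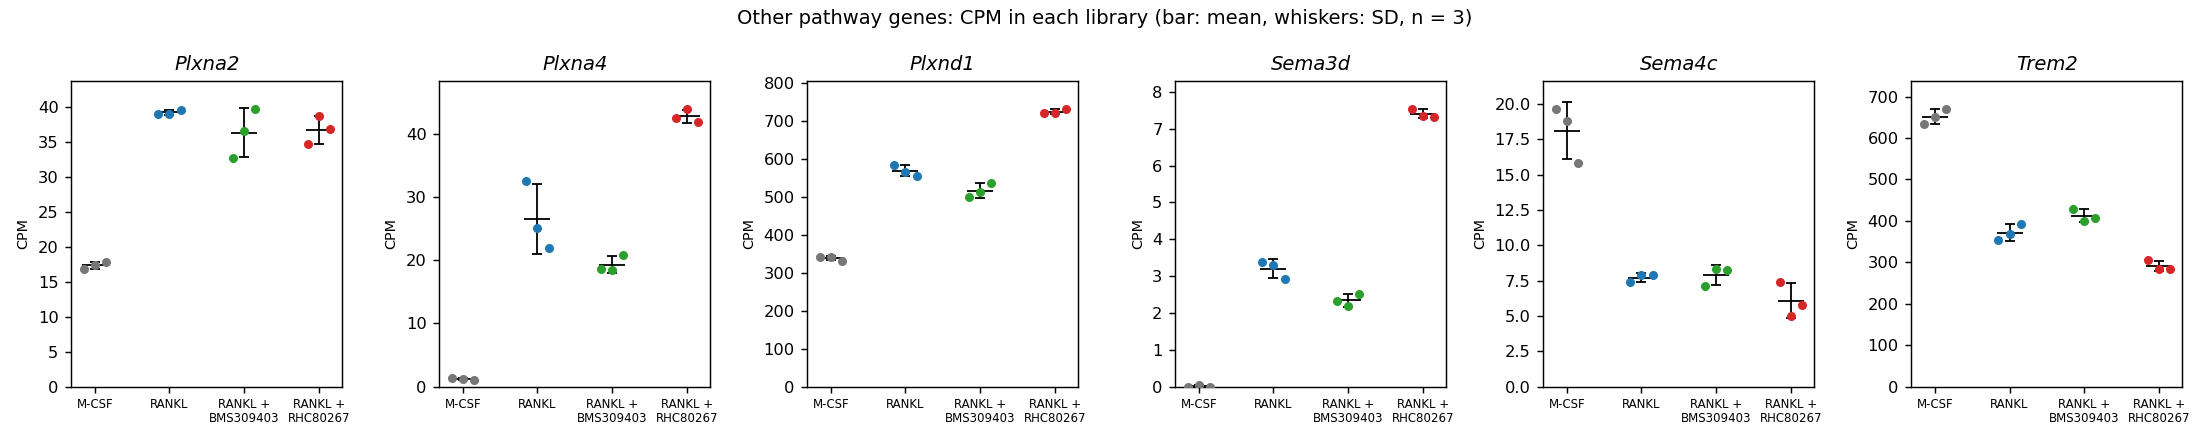
CPM of 6 other genes of the pathway in each library, by group on the x axis, with a bar for the mean and whiskers for the SD (n = 3), on y axes that start at 0 and differ between panels. Plxna4, Plxnd1 and Sema3d are highest with RHC80267, and Trem2 is highest under M-CSF and lowest with RHC80267.

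The genes with the most similar levels were looked up for the 3 of the 10 with the widest range of group means, among 9831 genes whose mean CPM was 5 or more. Over the 12 libraries, Pearson's r of log2 CPM with Sema3a was 0.995 for Mmachc, 0.994 for Nfatc1, the master transcription factor of osteoclasts, and 0.994 for Tcirg1, a subunit of the osteoclast proton pump. With Sema7a it was 0.999 for Coq8a, 0.999 for Plxna4 and 0.998 for Ablim1, an actin-binding protein. With Nrp2 it was 0.996 for Ptpn22, a phosphatase of immune cells, 0.994 for Gstt1 and 0.993 for Myof. The 12 libraries fall into 4 groups, so these values mostly describe group means, and they are given as a description.

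The authors' deposited table gave its own values for the 10 genes, called here at a q-value under 0.05. By the authors' deposited table, 6 were higher and 4 lower under RANKL than under M-CSF, 0 higher and 2 lower with BMS309403 than under RANKL, and 3 higher and 2 lower with RHC80267 than under RANKL. Between the inhibitors the authors' deposited table gave 4 higher and 3 lower with RHC80267, and against M-CSF 6 higher and 3 lower with either inhibitor. The authors' deposited table differs from the fit used here in Plxnc1 with BMS309403 over RANKL (q = 0.0557) and Plxnb2 with RHC80267 over M-CSF (q = 0.0337).

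The deposited table places Sema3a (gene 20346) on chromosome 5 at 13124822 to 13606233, Sema4a (20351) on chromosome 3 at 88435959 to 88461240, and Sema4b (20352) on chromosome 7 at 80186841 to 80226646. Sema4d (20354) is on chromosome 13 at 51701246 to 51793747 and Sema7a (20361) on chromosome 9 at 57939596 to 57962865. Plxna1 (18844) is on chromosome 6 at 89304630 to 89362613, Plxnb2 (140570) on chromosome 15 at 89155546 to 89182018, and Plxnc1 (54712) on chromosome 10 at 94790866 to 94945015. Nrp1 (18186) is on chromosome 8 at 128358591 to 128505476 and Nrp2 (18187) on chromosome 1 at 62703317 to 62818692. These are whole-gene spans, and 5 of the 10 have the same start and end in RefSeq GRCm38.p6. For Sema4d, Plxna1 and Plxnb2 the table's strand column has plus where GENCODE vM21 has minus, and whether this touched the counts was not tested.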

How the data were processed

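The deposited table holds 1 row per gene, with a read count and an FPKM for each library, per the file headers. Of a library's deposited count values, 9.49% to 9.89% are not whole numbers. They were taken as the authors' RSEM expected counts and rounded. The submitters' processing notes list Bowtie2, RSEM 1.3.1 and DESeq2 1.4.5, without settings. Also deposited are the authors' own log2 fold changes with q-values, and these are quoted only where the authors are named.

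Low-count genes were filtered by group with filterByExpr, which removed 4402 genes and left 12168. Libraries were scaled by TMM factors, and all 12 entered 1 quasi-likelihood fit in edgeR 4.0.16 (R 4.3.3) with group as its term and 8 residual degrees of freedom. P-values are 2-sided and Benjamini-Hochberg adjusted over all genes tested. The fit was tested on simulated data.

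The 10 genes, the pathway list of 62 genes (60 in the table) and the markers were chosen with earlier results of these data known. Named pathway genes are up to 6 called genes with the smallest p in each comparison. Sema6d, Plxnb1, Cd72 and Itgb1 were added as known partners after their values were seen. Promoter windows are RefSeq's, on GRCm38.p6. Intervals on count ratios are exact and cover counting error only. The growth protocol in the labels also describes 4 days with RANKL, whereas the group treatments state 2 days.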

Additional observations from a re-analysis of the deposited data

How the results depend on the processing

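Each result was recomputed with each library left out, with the replicate number as a block, with DESeq2 1.42.0 or limma-voom, with RLE factors, without a filter or with a stricter one (1 CPM in 3 libraries), and with only the groups compared. Over these, 149 counts of called genes among the 10 stayed within 1.5 times and 7 moved, all 7 with a library left out. With BMS309403 over RANKL the count of higher genes was 0 to 1 (edgeR; 1 to 3 genes had an unadjusted p under 0.05 where it was 0), with RHC80267 over RANKL the count of lower genes was 1 to 2, and with RHC80267 over BMS309403 it was 1 to 4. For single genes of the 10, 727 values kept direction and call, 17 lost a call, 11 gained one and 25 changed sign, none of those 25 called. Among other pathway genes named, 437 kept both and 18 lost a call, all with BMS309403 over RANKL.

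The sign changes were all close to 0. With RHC80267 over RANKL, Nrp2 was −0.00067 with DESeq2, −0.00068 with RLE factors, −0.011 without a filter and also with the stricter one, and −0.021 with only the groups compared. Leaving out a library moved it between −0.041 and 0.070, Sema4d between −0.030 and 0.028, Plxna1 between −0.060 and 0.022 and Nrp1 between −0.073 and 0.015. With RHC80267 over BMS309403, Sema4b was −0.0034 with DESeq2, −0.0035 with RLE factors, −0.018 without a filter, −0.017 with the stricter one, −0.0021 with limma-voom, −0.020 with only the groups compared, and −0.089 to 0.069 with a library left out. Plxnc1 with BMS309403 over M-CSF was −0.030 to 0.063 with a library left out. The causes were not tested.

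Calls gained beyond those in the report were Plxna1 with RHC80267 over BMS309403 without a filter, with the stricter one and with only the groups compared (adjusted p = 0.0300, 0.0435 and 0.0492), Sema4d there with limma-voom (adjusted p = 0.0470), and Plxnb2 with RHC80267 over M-CSF with limma-voom or only the groups compared (adjusted p = 0.0462 and 0.0362). In deposited FPKM, 2 of the 4 groups kept their place in the order of means for Sema4d, for Plxna1 and for Nrp1, and all 4 did for the other 7 genes.

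With the replicate block, the 10 genes kept 6 higher and 4 lower under RANKL, 1 and 2 with BMS309403 and 3 and 2 with RHC80267 over RANKL, and only Mst1r lost a call (with BMS309403, adjusted p = 0.0554). Same-numbered libraries did not deviate together (r of −0.092 to 0.094 over 18 pairs). Pairs of different number had r of −0.072 to 0.105 over 36 pairs. Of the 12 libraries, 4 correlated best with their own number. Depth limits Sema3a most, with 107 reads over the RANKL group and 70 with BMS309403.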
